A study of Mus musculus with 4 samples.

Results

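NK and ILC1 cells of the mouse small-intestinal epithelial layer were selected on single-cell transcript counts of the genes named next. A barcode, the tag that stands for 1 droplet, had to carry at least 500 unique molecular identifiers (UMIs, each 1 counted transcript), at least 250 genes and at most 25% mitochondrial UMIs. It also had to carry at least 1 UMI of the NK receptor genes Ncr1, Klrb1c and Klrb1b summed and at least 1 UMI of Ptprc and Nkg7 summed. At most 1 UMI of the CD3 genes Cd3d, Cd3e and Cd3g, no Trac UMI and at most 1 Trdc UMI were allowed, with Fabp1 under 1% and Jchain under 0.2% of UMIs. Of 25788 barcodes within the limits on depth and mitochondrial UMIs, out of 44277 in all, 55 met the rule and are called gated cells here. They lay in 2 of the 4 libraries, with 14 in library 1, 41 in library 3 and none in libraries 2 and 4.

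Natural killer (NK) cells and type 1 innate lymphoid cells (ILC1) are lymphocytes without a rearranged antigen receptor. They read target cells through germline-encoded activating and inhibitory receptors, many of them in the lectin-like Klr families, and answer with cytotoxic granules, interferon gamma and chemokines. In the gut epithelium they lie among far more numerous intraepithelial T cells, some of which carry the same receptors, and ILC1 are known there for tissue-resident integrins and dependence on T-bet.

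The samples came from male C57BL/6J mice that received a high-fat diet with l-NAME, a nitric oxide synthase inhibitor. In 2 samples this diet held 562.5 mg 3-indolepropionic acid (IPA, a bacterial tryptophan metabolite) per kg, and in 2 control samples it did not. Feeding began at 8 weeks of age and ran for 7 weeks, to an age of 15 weeks, and each sample pooled 2 mice, which cannot be separated. Cells of the epithelial layer from ileum to jejunum, freed of Peyer's patches, were released with EDTA and DTT and sorted as DAPI-negative live cells for droplet sequencing of transcript 3′ ends.

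Nothing in the labels or the files ties a library number to a diet, so no diet comparison was made and no test was run between libraries. The 4 libraries held 6174, 7122, 6307 and 6185 barcodes within the limits. Gated cells were 0.227% of these in library 1 (exact Clopper-Pearson 95% interval 0.124 to 0.380%) and 0.650% in library 3 (0.467 to 0.881%). A count of 0 allows up to 0.0421% in library 2 and 0.0485% in library 4. T cells followed the same split, since αβ T cells (at least 2 CD3 UMIs, at least 1 Trac UMI, no Trdc UMI) numbered 109, 2, 488 and 2 in libraries 1 to 4 and γδ T cells (at least 2 CD3 and 2 Trdc UMIs, no Trac UMI) 48, 0, 196 and 1. There were 8.92 gated cells per 100 T cells in library 1 and 5.99 in library 3. Fewer lymphocytes in the tissue and fewer recovered in libraries 2 and 4 cannot be told apart. Pairs of libraries shared 23 to 48 barcode sequences; no gated cell had a gated partner in another library, and 1 gated barcode sequence also occurred as another barcode. Intervals and limits cover counting error only, and cells of 1 library share their source.

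The genes that chose the cells describe the rule and are not a finding. Ncr1 encodes the activating receptor NKp46, Klrb1c the activating receptor NK1.1 and Klrb1b an inhibitory receptor of the same family that binds the lectin Clr-b. The 3 genes summed to between 1 and 18 UMIs per gated cell. All 3 genes were detected in 23 cells, Ncr1 with Klrb1c in 9, Ncr1 with Klrb1b in 9 and Klrb1c with Klrb1b in 4. Klrb1b stood alone in 6 cells (4 in library 1), Klrb1c alone in 3 and Ncr1 alone in 1. The rule required at least 1 UMI of these genes in sum, so their promoters are shown. Each stretch runs 5′ to 3′ on the gene's strand from 250 bases before to 50 bases after the RefSeq gene start (build GRCm38.p6), and the capitals mark the RUNX core letters TGTGGT or their reverse complement ACCACA. RUNX factors are known regulators of NK cell receptor genes; a match here is a description of letters only.
Ncr1, chr7:4337465-4337764, plus strand: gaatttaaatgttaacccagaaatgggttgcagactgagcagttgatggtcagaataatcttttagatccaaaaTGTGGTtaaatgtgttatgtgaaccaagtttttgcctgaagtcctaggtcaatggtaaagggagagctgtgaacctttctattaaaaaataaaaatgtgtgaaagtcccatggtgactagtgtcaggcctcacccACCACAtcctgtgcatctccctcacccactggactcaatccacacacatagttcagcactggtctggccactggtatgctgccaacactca
Klrb1c, chr6:128788592-128788891, minus strand: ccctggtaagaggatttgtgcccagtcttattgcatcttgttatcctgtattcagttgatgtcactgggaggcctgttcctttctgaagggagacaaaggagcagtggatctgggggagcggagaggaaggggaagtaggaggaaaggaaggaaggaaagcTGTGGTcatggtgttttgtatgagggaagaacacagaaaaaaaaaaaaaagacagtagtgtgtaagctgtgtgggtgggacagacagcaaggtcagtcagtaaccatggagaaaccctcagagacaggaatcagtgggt
Klrb1b, chr6:128826266-128826565, minus strand: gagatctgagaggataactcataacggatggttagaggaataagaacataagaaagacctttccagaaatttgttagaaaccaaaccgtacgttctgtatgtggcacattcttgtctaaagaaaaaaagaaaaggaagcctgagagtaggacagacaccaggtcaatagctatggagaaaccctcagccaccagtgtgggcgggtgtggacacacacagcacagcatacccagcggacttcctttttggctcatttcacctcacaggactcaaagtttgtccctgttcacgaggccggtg

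The Ncr1 stretch held 2 such matches, the Klrb1c stretch 1 and the Klrb1b stretch 0. Of 32851 RefSeq promoter windows of the same length, 16.8% held the letters on either strand. The T-box letters AGGTGT or ACACCT, which no window of the 3 genes held, were in 13.7%.

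CD3 UMIs entered the definition of all 3 classes, so their difference describes the rule. Gated cells had a median of 0 CD3 UMIs in both libraries, against 19 in αβ T cells of both libraries and 21 and 20 in γδ T cells of libraries 1 and 3. Just inside, 3 cells of library 3 had 1 CD3 UMI. Just outside, 1 barcode of library 3 had 2 CD3 UMIs and otherwise met the rule. With any count of 2 or more CD3 UMIs, 7 barcodes of library 1 and 22 of library 3 otherwise met it. Of these, 7 and 20 had a Tyrobp UMI. Just inside the receptor limit, 3 cells of library 1 and 1 of library 3 had a single NK receptor UMI. Outside it, 125 and 357 barcodes of libraries 1 and 3 met every other part of the rule with no NK receptor UMI, and a Tyrobp UMI lay in 62 and 99 of them. An NK receptor UMI also occurred in 69 of 488 αβ T cells and 13 of 196 γδ T cells of library 3, but in 1 of 2427 enterocyte barcodes. Enterocyte barcodes are far deeper (median 32989 UMIs per barcode, against 3858 in gated cells of library 3). They were defined by Fabp1 at 1% or more of UMIs and no Ptprc or Nkg7 UMI. That choice leaves out barcodes with these lymphocyte transcripts, so it sets the low count in part, and the count is no free measure of background.

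The label was checked against marker genes, of which Klrk1 and Klrc1 were left unused by the rule. Klrk1, which encodes the activating receptor NKG2D, was detected in 24 of 41 gated cells of library 3 and 7 of 14 of library 1. Klrc1, which encodes the inhibitory receptor NKG2A, was detected in 13 and 5. Klrk1 stood at 397 CPM in gated cells of library 3, 29.6 CPM in αβ T cells and 7.38 CPM in γδ T cells. CPM are counts of a gene scaled to a common total of UMIs, here summed over the cells of a class. Klrc1 stood at 198, 8.40 and 2.11 CPM in the same order. With Ncr1 and Klrb1c, genes of the rule, the 4 markers summed to 1301, 76.0 and 34.8 CPM. Ncr1 and Klrb1c were 373 and 333 CPM of the sum in gated cells, so the rule set a large part of that difference. The 17 T cell markers found in the files, some of them limited by the rule, summed to 1266 CPM in gated cells of library 3, 9349 CPM in αβ T cells and 8346 CPM in γδ T cells. UMIs of 10 of these markers were present, in 40 of the 41 gated cells, and most of these UMIs were of Trbc1 or Trbc2. The other 7 were at 0, of which Cd3d and Trac are genes of the rule and Cd8b1, Cd5, Cd6, Cd28 and Themis are not. The 9 ILC2 markers summed to 107 CPM in gated cells of library 3, with UMIs of 3 of them in 17 cells, against 86.7 CPM in αβ T cells and 64.3 CPM in γδ T cells; Il1rl1, Il17rb, Il5 and Il13 were at 0 in gated cells of both libraries. B cell, plasma cell and mast cell markers summed to 238, 262 and 63.5 CPM in gated cells of library 3, against 206, 199 and 50.8 CPM in αβ T cells. Enterocyte markers summed to 9620 CPM in gated cells, 14366 CPM in αβ T cells and 18450 CPM in γδ T cells, and Fabp1 was a median 0.169% of UMIs in gated cells, 0.187% in αβ T cells and 0.169% in γδ T cells; the part of this epithelial RNA in other values was not tested.

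A further look at single barcodes found 4 that went against the label, and they are given apart wherever a value rests on them. In library 1, 3 barcodes with 8668, 11450 and 15317 UMIs held 200, 114 and 410 UMIs of Lyz2, a lysozyme gene of macrophages, and 280, 404 and 511 UMIs of Cd74, the MHC class II invariant chain. They entered through 1 or 2 Klrb1b UMIs alone, had no Klrk1 UMI and carried 45.4% of the gated UMIs of library 1. In library 3, 1 barcode had 74544 UMIs, 29.6% of the gated UMIs there. It held 108 Agr2, 22 Spdef and 119 Epcam UMIs, which are genes of secretory and other epithelial cells, and 25 Mki67 UMIs, with no Tyrobp, Klrd1 or Klrk1 UMI. Without these 4 barcodes 51 cells remained, 11 in library 1 and 40 in library 3. The gated cells had a median of 4247 UMIs in library 1, close to 3689 in αβ T cells, and 3858 UMIs in library 3, close to 3781 in αβ T cells. The doublet score placed 3 gated barcodes of library 3 among the highest 6%, those of 8858, 17489 and 74544 UMIs.

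**Figure D1:**
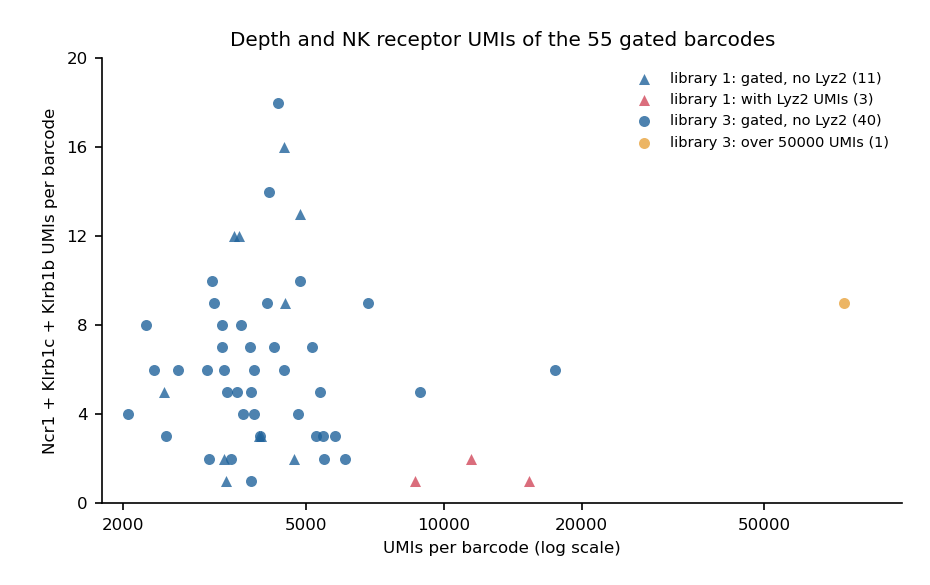
Each point is 1 of the 55 gated barcodes, with its UMIs on the x axis (log scale) and its summed Ncr1, Klrb1c and Klrb1b UMIs on the y axis; triangles are library 1 and circles library 3. The 3 barcodes with Lyz2 UMIs have 1 or 2 receptor UMIs, and the barcode of 74544 UMIs lies apart from all others.

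Levels were compared with T cells within library 3, the only library with at least 20 gated cells. Library 1 is given as UMIs, with a summed CPM for the granule genes only. Each class is 1 summed value from 1 pool of mice, so the differences have no replicate check and no p-value. A gene counted as past 4-fold when log2(CPM + 10) differed by at least 2 with at least 5 UMIs in the higher class. Of 11602 genes measured against αβ T cells, 42 were past 4-fold higher in gated cells (0.362%) and 64 past 4-fold lower (0.552%). Against γδ T cells 46 of 10306 were higher (0.446%) and 33 lower (0.32%). Without the barcode of 74544 UMIs the counts against αβ T cells were 41 higher (0.354%) and 61 lower (0.526%), and those against γδ T cells 49 higher (0.478%) and 68 lower (0.663%). Over all genes the median log2 difference was 0.02 against αβ T cells and -0.01 against γδ T cells. Levels of the same gene in all 41 gated cells are followed, where it matters, by the level without that barcode. The T cell sums of library 3 were left whole. Their largest barcodes had 64397 of 2261843 UMIs in αβ T cells and 104357 of 948708 UMIs in γδ T cells. How T cell levels change without such barcodes was not tested.

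Several activating receptors were higher in gated cells than in T cells. Of 20 listed genes 4 were past 4-fold higher than in αβ T cells and 1 was past 4-fold lower, with the same genes against γδ T cells; 2 of the 4, Ncr1 and Klrb1c, are genes of the rule. The list's median log2 difference was 0.24 against αβ T cells (0.72 without the large barcode). Klrk1 stood at 397 CPM in gated cells (exact Poisson 95% interval 323 to 483), against 29.6 CPM in αβ T cells and 7.38 CPM in γδ T cells (2.97 to 15.2). It had 100 UMIs in 24 of 41 cells of library 3, at most 12 in a cell, and 44 UMIs in 7 of 14 cells of library 1. Klrc2, which encodes the activating receptor NKG2C, stood at 182 CPM in gated cells, 6.63 CPM in αβ T cells and 5.27 CPM in γδ T cells. It was seen in 19 cells of library 3 and 5 of library 1. With every cell of library 3 thinned to 2000 UMIs, Klrk1 was detected in 39.0% of gated cells, 4.48% of αβ T cells, 1.06% of γδ T cells and none of 500 enterocyte barcodes, a class chosen to lack Ptprc and Nkg7 UMIs.

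Several receptors and adaptors were also abundant in the intraepithelial T cells. Klrd1, which encodes CD94, the partner of NKG2A and NKG2C, stood at 611 CPM in gated cells (867 without the large barcode), 802 CPM in αβ T cells and 597 CPM in γδ T cells. Cd160, a receptor for the ligand HVEM, stood at 651 CPM (918), 536 CPM and 683 CPM in the same order. Fcer1g, an adaptor with an activating tail, was detected in all 41 gated cells of library 3 and all 14 of library 1. It stood at 1714 CPM (2411), against 1517 CPM in αβ T cells, where 66.8% of cells had a UMI, and 1502 CPM in γδ T cells. Tyrobp, the adaptor DAP12, stood at 1571 CPM in gated cells (2231), 987 CPM in αβ T cells and 827 CPM in γδ T cells. Hcst, the adaptor DAP10 of NKG2D, stood at 274 CPM in gated cells (389), 569 CPM in αβ T cells and 472 CPM in γδ T cells. Cd247, the CD3 zeta chain that also serves NKp46, was the list's gene past 4-fold lower. It had 0 UMIs in 41 gated cells, which allows up to 11.9 CPM, and 1 UMI in library 1, against 87.1 CPM in αβ T cells and 103 CPM in γδ T cells.

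Inhibitory receptors split between those higher and those lower than in T cells. Of 21 listed genes measured against αβ T cells, Klrc1 and Klrb1b, a gene of the rule, were past 4-fold higher and Klra5, Cd200r1 and Ctla4 past 4-fold lower; the list's median log2 difference was -0.29. Klrc1 stood at 198 CPM in gated cells (147 to 262), against 8.40 CPM in αβ T cells (5.06 to 13.1) and 2.11 CPM in γδ T cells (0.255 to 7.62). Its 50 UMIs lay in 13 of 41 cells of library 3, at most 11 in a cell, and 16 UMIs lay in 5 cells of library 1. Cd200r1, receptor of the inhibitory ligand CD200 and a listed ILC1 marker, had 5 UMIs in 5 gated cells, or 19.8 CPM, against 140 CPM in αβ T cells and 111 CPM in γδ T cells; its difference from αβ T cells was -1.97 without the large barcode, just short of 4-fold. Ly49 receptors, encoded by the Klra genes, were sparse. In gated cells of library 3, Klra1, Klra4 and Klra10 had 0 UMIs, Klra8 had 3 UMIs in 2 cells and Klra7 had 9 UMIs in 1 cell. Klra, Klrb1 and Klrc genes have close relatives, so reads of single members are uncertain where the counting split or dropped shared reads.

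In library 3, the granzyme transcripts Gzma and Gzmb were lower in the gated cells than in the T cells and were held by few gated cells. Gzma, a granule protease, stood at 1504 CPM in gated cells of library 3 (2135 without the large barcode), against 16020 CPM in αβ T cells and 9133 CPM in γδ T cells. It was detected in 14 of 41 gated cells with 379 UMIs, of which single cells held 151, 94, 81 and 24. Gzmb, the second main protease, stood at 198 CPM in gated cells (282), against 2026 CPM in αβ T cells and 1157 CPM in γδ T cells. Of 17 listed granule and killing genes, Gzma and Gzmb were the 2 past 4-fold lower and Gzmc the 1 past 4-fold higher, against either T cell class, with a median log2 difference of -0.27 against αβ T cells (-0.01 without the large barcode). Gzmc had 14 UMIs in 4 cells of library 3 and 40 UMIs in 2 cells of library 1. In library 1, single gated cells held 187 and 152 Gzma UMIs. Without the Lyz2 barcodes, Gzmb was detected there in 6 of 8 gated cells with a Tyrobp UMI and 0 of 3 without. The listed granule genes summed to 16654 CPM in these gated cells of library 1, against 24457 CPM in αβ T cells. That gap was smaller than in library 3, with 5558 CPM (7740 without the large barcode) against 22550 CPM. Perforin, Prf1, stood at 75.4 CPM in gated cells (45.4 to 118), 34.9 CPM in αβ T cells and 22.1 CPM in γδ T cells and was not past 4-fold. Gzma is abundant enough to appear in droplets that should lack it, since 30.4% of enterocyte barcodes had a Gzma UMI before thinning and 2.2% after it, against 29.3% of gated cells, 60.3% of αβ T cells and 43.9% of γδ T cells after thinning.

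The Gzma level also rested on how the receptor criterion was set. With Ncr1 alone required it was 489 CPM in gated cells of library 3, and with Klrb1b left out 547 CPM, against 1504 CPM under the rule. Of the 6 gated cells with 20 or more Gzma UMIs, 2 had an Ncr1 UMI, 4 a Klrb1c UMI and 2 a Klrb1b UMI. All 6 had 0 Cd8a UMIs, and 1 had a single Cd3g UMI.

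Chemokine transcripts were detected in most gated cells, at levels near or below those of T cells for the most abundant. Of 14 listed cytokine and chemokine genes none was past 4-fold higher than in αβ T cells and 1, Ccl5, was past 4-fold lower. Ccl5, a chemoattractant for T cells and NK cells, stood at 4285 CPM in gated cells, against 18056 CPM in αβ T cells and 12650 CPM in γδ T cells, and without the large barcode at 6072 CPM it was no longer past 4-fold. It was detected in 36 of 41 gated cells of library 3 and 8 of 14 of library 1, with up to 112 UMIs in a cell. Xcl1, the ligand of the cross-presenting dendritic cell receptor XCR1, was detected in 34 cells and stood at 885 CPM in gated cells (1256), against 846 CPM in αβ T cells and 901 CPM in γδ T cells. Ccl3 stood at 369 CPM in gated cells (298 to 452), 133 CPM in αβ T cells and 68.5 CPM in γδ T cells. Its 93 UMIs lay in 10 gated cells, of which single cells held 43 and 27. Ccl3, Tnf and Cxcl10 were past 4-fold higher than in γδ T cells; all 8 Cxcl10 UMIs came from 1 cell. Ifng had 5 UMIs in 5 of 41 cells of library 3, or 19.8 CPM (6.44 to 46.3), against 47.3 CPM in αβ T cells, and no UMI in the 14 cells of library 1.

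Among cytokine receptors, both chains of the IL-18 receptor and Il2ra were higher in the gated cells. Of 18 listed genes 3 were past 4-fold higher than in αβ T cells, Il2ra, Il18r1 and Il18rap, and none past 4-fold lower, with a median log2 difference of 0.12. Il18r1 and Il18rap encode the chains of the IL-18 receptor. Il18r1 stood at 79.3 CPM in gated cells (48.5 to 123), against 10.6 CPM in αβ T cells (6.80 to 15.8) and 3.16 CPM in γδ T cells (0.652 to 9.24), and had UMIs in 10 cells of library 3 and 5 of library 1. Il7r, the IL-7 receptor chain used to mark ILCs, stood at 345 CPM in gated cells (276 to 426), against 88.9 CPM in αβ T cells and 72.7 CPM in γδ T cells. It was past 4-fold against γδ T cells, with a log2 difference of 2.10, and against αβ T cells only without the large barcode, with 2.25 in place of 1.84. Il2rb, the chain shared by the IL-2 and IL-15 receptors, stood at 266 CPM in gated cells (377), 408 CPM in αβ T cells and 301 CPM in γδ T cells.

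Of 24 listed transcription factor genes measured, none was past 4-fold in either direction against αβ T cells or, of 22, against γδ T cells. Tbx21, which encodes T-bet, was detected in 17 of 41 gated cells of library 3, at 83.3 CPM (51.6 to 127), against 39.8 CPM in αβ T cells (32.0 to 48.9) and 31.6 CPM in γδ T cells (21.3 to 45.1). In library 1 it was seen in 1 of 14 cells. Eomes, the related factor of conventional NK cells, had 2 UMIs in 2 cells of library 3 and 3 UMIs in 1 cell of library 1. No cell had both Eomes and Il7r. Id2, a factor that all ILCs need, stood at 623 CPM in gated cells (529 to 728), 419 CPM in αβ T cells (393 to 447) and 285 CPM in γδ T cells (252 to 321). Ikzf2, which encodes Helios, stood at 234 CPM in gated cells (178 to 302), below 573 CPM in αβ T cells and 511 CPM in γδ T cells.

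The listed genes of conventional NK cells summed to 309 CPM in gated cells of library 3 (417 without the large barcode), 222 CPM in αβ T cells and 193 CPM in γδ T cells, and none of the 9 measured was past 4-fold in either direction against αβ T cells. Among them S1pr5, an exit receptor of NK cells, had no UMI in gated cells of either library. Itga2, which encodes CD49b, had a UMI in 9.76% of gated cells of library 3, 8.40% of αβ T cells and 5.61% of γδ T cells. Of 8 ILC1 genes none was past 4-fold higher than in αβ T cells and Cd200r1 was past 4-fold lower, but without the large barcode Il7r was past 4-fold higher and none lower. Itga1 and Cxcr6, genes of tissue residence, were detected in most gated cells of library 3. Itga1, which encodes CD49a, was detected in 28 of 41 gated cells of library 3, at 266 CPM (206 to 338), against 386 CPM in αβ T cells and 367 CPM in γδ T cells. Cxcr6, a chemokine receptor of resident lymphocytes, stood at 417 CPM in gated cells (341 to 504), 242 CPM in αβ T cells and 173 CPM in γδ T cells. Itgae, which encodes CD103, the integrin chain that holds lymphocytes to epithelial E-cadherin, stood at 182 CPM in gated cells (134 to 243), against 516 CPM in αβ T cells (486 to 546) and 490 CPM in γδ T cells (447 to 537). After thinning it was detected in 31.7% of gated cells, 61.0% of αβ T cells and 66.1% of γδ T cells.

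**Figure D2:**
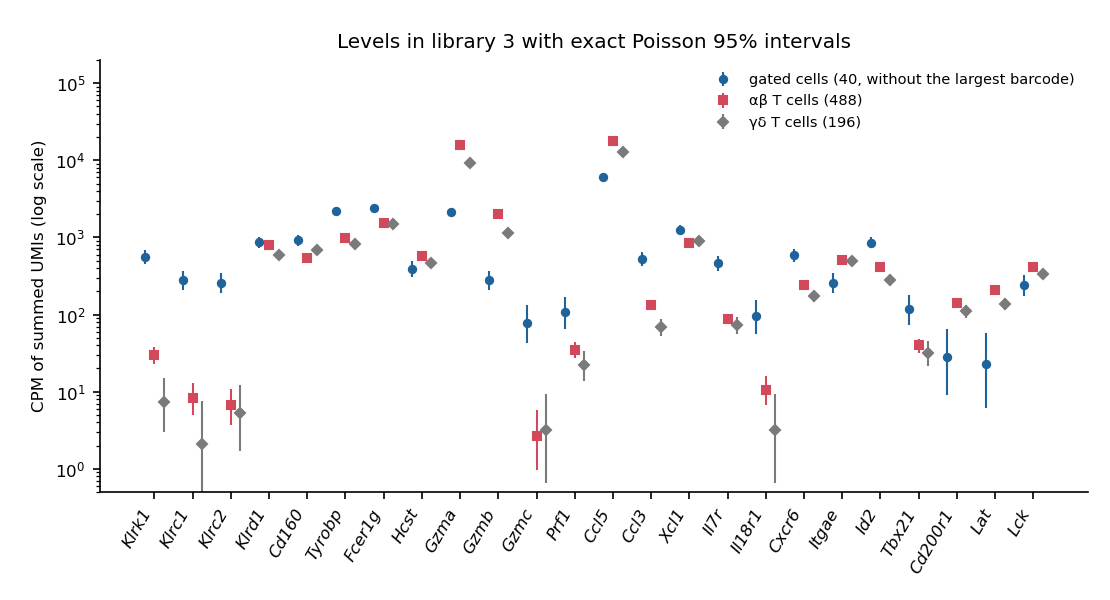
CPM of summed UMIs in library 3 on a log scale, for 40 gated cells without the barcode of 74544 UMIs, 488 αβ T cells and 196 γδ T cells; bars are exact Poisson 95% intervals. Klrk1, Klrc1, Klrc2, Gzmc and Il18r1 lie above both T cell classes, and Gzma, Gzmb, Cd200r1 and Lat lie below both.

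Of 18 listed signalling genes Lat, the scaffold of T cell receptor signalling, was the 1 past 4-fold lower than in αβ T cells, with a median log2 difference of -0.77 (-0.29 without the large barcode). Lat had 4 UMIs in 4 gated cells of library 3, or 15.9 CPM (4.32 to 40.6), and 1 UMI in library 1, against 207 CPM in αβ T cells and 136 CPM in γδ T cells. Syk, a kinase downstream of Tyrobp and Fcer1g, had 7 UMIs in 4 gated cells and was past 4-fold higher than in αβ T cells only without the large barcode, with a log2 difference of 2.02 in place of 1.63. Lck and Zap70, proximal kinases of T cells and NK cells, were detected in 26 and 19 of 41 gated cells; Lck stood at 171 CPM in gated cells, 409 CPM in αβ T cells and 340 CPM in γδ T cells. Of 16 T cell genes measured, 11 were past 4-fold lower than in αβ T cells, but 4 of them, Cd3d, Cd3e, Cd3g and Trac, are genes of the rule. Icos, a costimulatory receptor, was past 4-fold higher than in γδ T cells, at 39.7 CPM in gated cells, 34.0 CPM in αβ T cells and 1.05 CPM in γδ T cells. Cd8a, which is no gene of the rule, stood at 51.6 CPM in gated cells (27.5 to 88.2), against 1072 CPM in αβ T cells and 737 CPM in γδ T cells. The constant region transcripts Trbc1 and Trbc2, which NK cells and ILCs are known to make from the unrearranged locus, were frequent. Trbc1 was detected in 90.2% of gated cells, 57.6% of αβ T cells and 66.3% of γδ T cells of library 3, while Trbc2 was detected in 61.0% of gated cells, 93.4% of αβ T cells and 88.8% of γδ T cells. The genes are near-identical, and the 3′ reads that tell them apart were not examined.

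IPA is known as a ligand of the aryl hydrocarbon receptor (AhR) and of the pregnane X receptor (PXR). Of 8 genes of these pathways measured against αβ T cells, none was past 4-fold in either direction. Ahr was detected in 20 of 41 gated cells of library 3 and 6 of 14 of library 1, or 3 of 11 without the Lyz2 barcodes. Its target genes Cyp1a1 and Cyp1b1 had 0 UMIs in the gated cells, which allows up to 11.9 CPM in library 3. The AhR target Tiparp had 8 UMIs in 5 cells, and Nr1i2, which encodes PXR, 3 UMIs in 3 cells of library 3. These libraries cannot say whether any level moved with IPA.

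The gated cells were not uniform, and several genes were detected unevenly between cells with and without a Tyrobp UMI. Tyrobp was chosen for this after its values were seen, so the split is a description with no test. Among the 51 cells without the 4 odd barcodes, 37 had a Tyrobp UMI, with a median of 12, and 14 had none. Both kinds were in both libraries, with 8 and 3 cells in library 1 and 29 and 11 in library 3. The cells with Tyrobp were somewhat deeper, with a median of 4126 UMIs against 3405.5. Itgae was detected in 20 of the 37 cells with Tyrobp and in 0 of the 14 without. Klrd1 was detected in 34 of 37 and 6 of 14, Cd7, a marker of NK cells and intraepithelial lymphocytes, in 33 of 37 and 5 of 14, Klrc1 in 17 of 37 and 1 of 14, and Cd160 in 34 of 37 and 7 of 14.

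Other genes ran the other way across the same split. Cxcr6 was detected in 19 of the 37 cells with Tyrobp and 13 of the 14 without, Il7r in 15 and 11, and the ILC-associated membrane protein genes Tmem176a and Tmem176b in 9 and 10 and in 13 and 11. Klrb1b, a gene of the rule whose shares the choice of cells sets in part, was detected in 24 of 37 and 14 of 14. Genes with closer shares were Ncr1, also a gene of the rule, in 29 of 37 and 12 of 14 cells, Klrk1, in 22 and 9, and Fcer1g, in every cell of both kinds. In library 1 alone Itgae was in 4 of 8 and 0 of 3 cells and Il7r in 1 of 8 and 3 of 3. In library 3 alone Itgae was in 16 of 29 and 0 of 11 and Il7r in 14 of 29 and 8 of 11.

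The same split in T cells had a like direction for some of these genes. In αβ T cells of library 3, Itgae was detected in 87.3% of 260 cells with a Tyrobp UMI and 66.2% of 228 without, Klrd1 in 92.7% and 34.2%, and Il7r in 2.31% and 36.0%. For Cxcr6 the T cell shares ran the opposite way, with 57.7% and 46.5%, against 55.2% of 29 gated cells with Tyrobp and 90.9% of 11 without in that library. Median depth was 4158 UMIs in αβ T cells with Tyrobp and 3493.5 UMIs in those without; the part of depth in these shares was not tested.

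Within the split, smaller sets of cells stood out by 1 gene each, again picked after their values were seen. The 6 cells with 20 or more Gzma UMIs held 24 to 187 each, or 689 of the 719 Gzma UMIs of the 51 cells; the other 45 cells had at most 7. All 6 had Tyrobp (6 to 24 UMIs), Klrd1 and 25 to 112 Ccl5 UMIs, 4 had Itgae, and none had a Tmem176a or Tmem176b UMI; 2 were in library 1 and 4 in library 3. At the other end, 4 cells held 10 to 13 Il7r UMIs each. None of these 4 had a Tyrobp, Klrk1, Klrd1 or Itgae UMI, and all 4 had Cxcr6, Klrb1b, Tmem176a and Tmem176b.

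Some ILC3 markers were detected in the gated cells. Of 8 ILC3 markers measured, Tmem176a and Tmem176b were past 4-fold higher than in αβ T cells. Tmem176b stood at 325 CPM in gated cells (259 to 404), 32.3 CPM in αβ T cells (25.3 to 40.6) and 21.1 CPM in γδ T cells (12.9 to 32.6). The barcode of 74544 UMIs held 19 Tmem176a and 13 Tmem176b UMIs, and both genes were also past 4-fold without it. Enterocyte barcodes carry them too, with Tmem176a in 44.3% and Tmem176b in 46.5% before thinning. After thinning the shares were 7.6% and 6.8%, against 29.3% and 34.1% of gated cells. Il22, the cytokine of ILC3 that acts on epithelium, had 42 and 3 UMIs in 2 cells of library 1 and 0 UMIs in library 3. Il17a, Il17f and Ccr6 had 0 UMIs in the gated cells of both libraries.

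**Figure D3:**
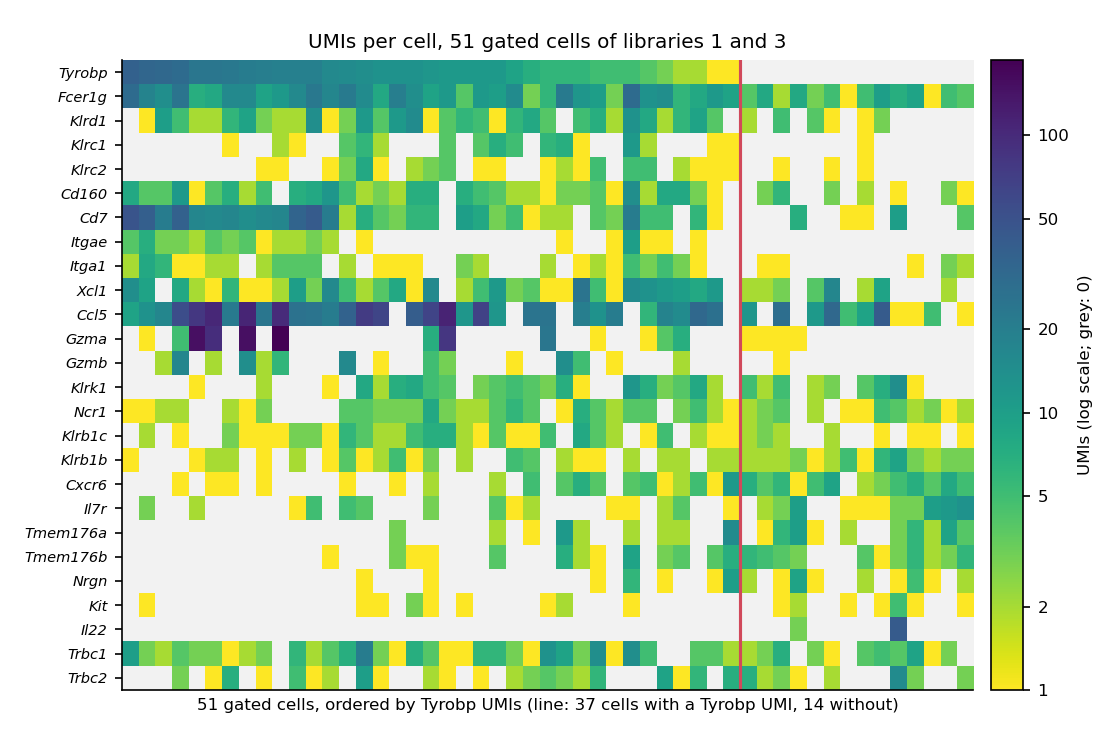
UMIs of the named genes (rows) in the 51 gated cells without the 4 odd barcodes (columns), ordered by Tyrobp UMIs on a log color scale with 0 in grey; the line parts 37 cells with a Tyrobp UMI from 14 without. Itgae is empty right of the line, Gzma is concentrated in 6 cells, and Il7r, Cxcr6 and Klrb1b fill the columns on the right.

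Among genes in no list, the 20 with the largest difference from αβ T cells (at least 10 UMIs) changed with the large barcode, since 9 of 20 were shared between the rankings with and without it. Nrgn, which encodes the calmodulin-binding protein neurogranin, led both. It had 34 UMIs in 13 of 41 gated cells of library 3 and 11 UMIs in 3 of library 1, at 135 CPM in gated cells (93.4 to 188), against 3.09 CPM in αβ T cells (1.24 to 6.38) and 5.27 CPM in γδ T cells (1.71 to 12.3). Among the 51 cells it was detected in 7 of the 37 with Tyrobp and 9 of the 14 without. Gem, a small GTPase gene, had 35 UMIs in 12 cells, at 139 CPM in gated cells, 9.28 CPM in αβ T cells and 2.11 CPM in γδ T cells. Ffar2, a receptor of short-chain fatty acids, had 14 UMIs in 4 cells, and Pecam1, which encodes the adhesion molecule CD31, 19 UMIs in 14 cells. Spdef, Ehf and Cbfa2t3 ranked only with the large barcode, which held all of their gated UMIs in library 3; of the 117 Agr2 UMIs there it held 108.

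The 10 most negative genes in no list shared 9 between the rankings. The T cell receptor gamma genes Tcrg-C2 and Trgv2 stood at 7.93 and 0 CPM in gated cells, against 496 and 110 CPM in αβ T cells and 512 and 113 CPM in γδ T cells. The rest were mostly products of Paneth and other epithelial cells. Defa24, a Paneth cell defensin, stood at 424 CPM in gated cells, 7526 CPM in αβ T cells and 413 CPM in γδ T cells, and Itln1, a goblet and Paneth cell lectin, at 51.6 CPM, 979 CPM and 46.4 CPM in the same order, so that these epithelial transcripts were raised in the αβ T cell sum and not in the γδ T cell sum.

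**Figure D4:**
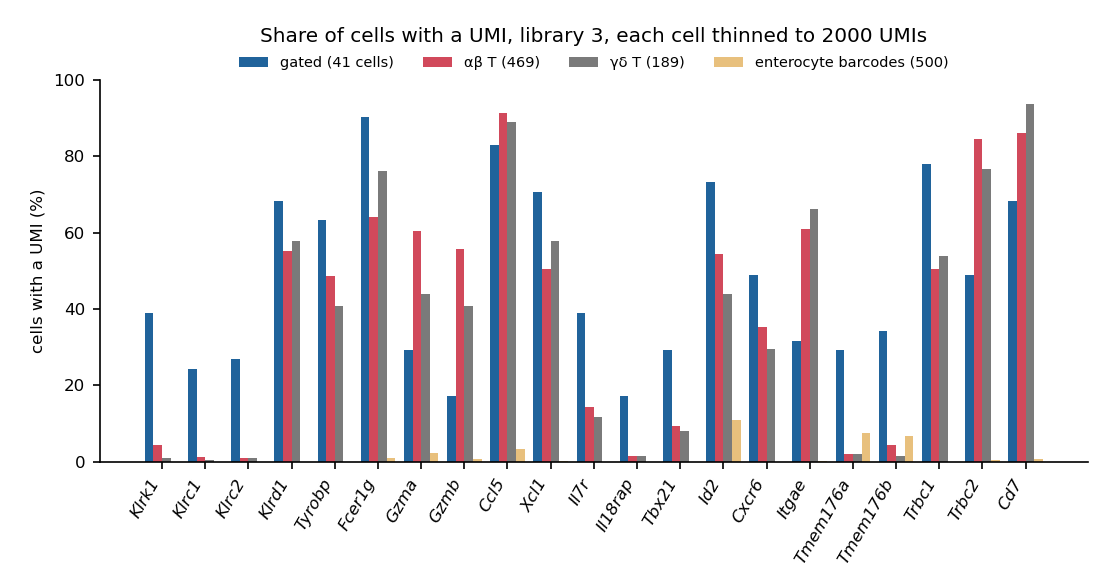
Share of cells with at least 1 UMI of each gene in library 3 after thinning every cell to 2000 UMIs, for 41 gated cells, 469 αβ T cells, 189 γδ T cells and 500 enterocyte barcodes (19 αβ T and 7 γδ T cells were too shallow). Klrk1, Klrc1, Klrc2 and Il7r are more often detected in gated cells, and Gzma, Gzmb and Itgae in T cells.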

How the data were processed

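Transcript counts were measured in droplets from 4 samples, each a pool of 2 mice, of which 2 received IPA and 2 the control diet. The deposited matrix holds raw UMI counts per gene and barcode, whole numbers per the file headers, with the library given only by the number at the end of each barcode. The submitters' processing notes name Cell Ranger 6.1.1 and mm10, with settings not given in the sources used here. CPM, list counts and thinned shares were computed here from those counts with Python 3.11.15, numpy 2.4.6, scipy 1.17.1 and pandas 2.3.3. The 4 libraries held 173564399 to 209357877 UMIs.

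Classes were summed per library, and levels are CPM with exact Poisson 95% intervals, shares exact Clopper-Pearson ones. A count of 0 was read as up to 3 counts. Contrasts use log2(CPM + 10), genes with at least 5 UMIs in either class and a threshold of 4-fold, in libraries with at least 20 gated cells. The step recovered known folds in simulated class sums, for genes with at least 20 expected UMIs. These sums were drawn without single cells, so they cannot say how the step behaves where few barcodes hold most UMIs of a gene. Cells were thinned with a fixed random seed. Doublets were scored with Scrublet in scanpy 1.11.5, the highest 6% per library being removed as an alternative only. The planned comparison of gated cells between libraries was not made, as library 1 held 14. Members and gene lists were chosen with earlier results of these data known. Named genes are members of the lists (312 of 316 symbols were found) and, of genes in no list, the 20 most positive and 10 most negative against αβ T cells with at least 10 UMIs, leaving out mitochondrial and ribosomal protein genes; Cd7 and the cuts on Tyrobp, Gzma and Il7r were chosen after values were seen. Some listed genes are not reported here.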

Additional observations from a re-analysis of the deposited data

How the results depend on the processing

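Libraries 2 and 4 held 0 gated cells under every alternative tried, and library 3 held 33 to 41. Library 1 held 9 with Ncr1 alone required, against 14, and 10 to 15 otherwise. Against αβ T cells 40 to 61 genes were past 4-fold higher and 50 to 72 lower in the alternatives other than the fold and the prior count. A 2-fold threshold gave 462 higher and 455 lower against αβ T cells and 418 and 491 against γδ T cells. With log2(CPM + 1) the counts were 184 and 967 against αβ T cells and 178 and 641 against γδ T cells; this lets 0 UMIs in few cells count as a large difference. Against γδ T cells 86 genes were higher, in place of 46, with Fabp1 under 0.5%. Lower genes there, 33 under the rule, numbered 85 with no CD3 or Trdc UMI allowed and 56 with likely doublets removed. They numbered 68 without gated barcodes over 50000 UMIs, an alternative added after seeing the data that left the T cell classes whole. All 3 alternatives leave out the barcode of 74544 UMIs. The cell cycle median turned over with likely doublets removed, to -1.02 against αβ T cells and -0.92 against γδ T cells, from 1.26 and 1.28; that alternative leaves out both cycling barcodes. Of the other recomputed gene levels and list medians, 62 moved beyond the interval or limit set for them and 348 did not. Also added after seeing the data were leaving out barcodes with Lyz2 and the mean of CPM per barcode, with 41 higher and 50 lower genes against αβ T cells and 53 and 45 against γδ T cells.

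No paired analysis was possible because no library number is tied to a sample, so the replicate numbers in the labels match no column. The comparison of gated cells between libraries and its alternatives, and leaving out each library in turn, were not run, since 1 library held at least 20 gated cells. With 41 and 14 gated cells, 0 UMIs of a gene allow a share of cells with a detected UMI of up to 7.32% in library 3 and 21.4% in library 1, and do not limit the share of cells that express it.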

Other observations

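Further lists had few or no members past 4-fold. Of 13 MHC class I genes, 16 early response and stress genes and 10 survival genes, none was past 4-fold in either direction against αβ T cells. Their median log2 differences were -0.30, 0.63 and -0.27 (0.11, 0.39 and -0.04 without the large barcode), against 0.02 (-0.01) over all genes. The early response and stress genes summed to 6768 CPM in gated cells of library 3 (6608 without the large barcode) and 4447 CPM in αβ T cells. H2-K1, a classical class I heavy chain, had UMIs in all 41 gated cells of library 3, at 2118 CPM in gated cells and 2345 CPM in αβ T cells. Bcl2, a survival factor, stood at 520 CPM in gated cells (727 without the large barcode), 691 CPM in αβ T cells and 797 CPM in γδ T cells. Of 14 interferon-response genes 1 was past 4-fold lower than in αβ T cells. It was Ifi27l2a, with 0 UMIs in library 3, which allows up to 11.9 CPM, against 96.4 CPM in αβ T cells and 50.6 CPM in γδ T cells, while its 8 UMIs in library 1 lay in 1 barcode with Lyz2.

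Of 12 cell cycle genes 4 were past 4-fold higher than in αβ T cells and 1 without the large barcode, and UMIs of the list were in 29 of 41 gated cells of library 3. Mki67 and Top2a came from 2 barcodes there. Mki67 had 52 UMIs in library 3, of which 27 lay in the barcode of 17489 UMIs and 25 in that of 74544, and no other gated cell of that library had one. Top2a had 31 and 32 UMIs in the same barcodes. The barcode of 17489 UMIs also had 12 Klrk1, 13 Klrd1 and 10 Itgae UMIs and 2 Epcam UMIs, and both were among those with the highest doublet scores.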
